A study of Mus musculus with 2 samples.

Results

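Cytokine genes known from mast cells and macrophages were examined as a set of 8 genes, namely Il4, Il13, Il6, Tnf, Il1b, Il10, Lif and Tgfb1. The members were chosen by name and not by their values, as the genes of the count matrix with these symbols. Each symbol matched 1 gene, so the set is 8 of 32285 genes. The data are 1 droplet library of cells grown from the dorsal aorta of 2 male C57BL/6J mice, 12 weeks of age. Aortic cells freed by enzyme were plated in methylcellulose, a semi-solid medium that keeps the offspring of a progenitor together, and macrophage colonies (CFU-M) were taken apart after 14 days. Cells that excluded DAPI, a dye that enters dead cells, were marked with MULTI-seq tags (lipid-anchored DNA oligonucleotides that mark a suspension), pooled, and sequenced with 10x Chromium 3′ chemistry. Both mice and all colonies share this 1 library, no treatment or genotype was compared, and there is no replicate. All differences described are therefore between cells of 1 library, with no test.

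Mast cells are granule-bearing immune cells of connective tissue that respond to IgE-bound antigen, alarmins and peptides. Besides histamine and proteases they make cytokines, and interleukin 4 and interleukin 13 (encoded by Il4 and Il13) are the pair that drives allergic, type 2 responses and the alternative state of macrophages. Macrophages are the usual source of interleukin 1 beta (Il1b), tumour necrosis factor (Tnf) and the inhibitory interleukin 10 (Il10), while interleukin 6 (Il6) and leukaemia inhibitory factor (Lif) signal through the shared receptor chain gp130 and come from many cell types, fibroblasts included. Transforming growth factor beta 1 (Tgfb1) is made in a latent form by most immune cells.

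After filtering, 30758 cells were kept, with a median of 12726.5 unique molecular identifiers (UMIs, each 1 captured RNA molecule). Clusters were named from marker genes: 22283 cells (72.4%) came out as mast cell-like, 2716 (8.83%) as macrophage-like and 5459 (17.7%) as fibroblast-like, and 300 stayed unnamed. Median depth was 11451 UMIs per cell in the mast cell-like class, 8771.5 in the macrophage-like class and 31205 in the fibroblast-like class. The library is labelled as macrophage progenitors, while most cells carried mast cell markers. The 7 mast cell markers (Cma1, Tpsb2, Cpa3, Mcpt4, Fcer1a, Ms4a2 and Hdc) summed to 60717 UMIs per 1000000 gene UMIs of the pooled class (CPM) among mast cell-like cells, and they also reached 20998 CPM among macrophage-like and 8930 CPM among fibroblast-like cells. None of the 7 was at 0 in any class. The 7 macrophage markers summed to 6889 CPM in the macrophage-like class, 41.9 CPM in the mast cell-like class and 95.5 CPM in the fibroblast-like class. More than 1 tag was called on 26.0% of the macrophage-like class, 23.8% of the fibroblast-like class and 3.5% of the mast cell-like class. The share of UMIs from 1 class that lies in droplets of another therefore stands beside each member below. Basophil markers summed to 527 CPM in the mast cell-like class, with Cd200r3 at 477, Prss34 at 38.4 and Mcpt8 at 11.5 CPM. T cell, NK cell and B cell markers summed to under 1 CPM each there. In the macrophage-like class monocyte markers summed to 2074 CPM (F13a1 1928, Ccr2 115) and neutrophil markers to 352 CPM (S100a9 171, S100a8 138, Csf3r 35.5). Megakaryocyte markers summed to 2380 CPM there (Pf4 2315) and erythroid markers to 1490 CPM. Whether other cell types lie in that class was not tested.

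Of the 8 members, 6, Il4, Il13, Il6, Tnf, Lif and Tgfb1, had their highest level in mast cell-like cells, and Il1b and Il10 had theirs in macrophage-like cells. Il6 differed little between classes and was highest in macrophage-like cells in 1 alternative processing given with its values. No member was highest in fibroblast-like cells. Over the 11823 genes that reached 5 CPM in any class, 36.6% were highest in the mast cell-like class, 25.3% in the macrophage-like class and 38.1% in the fibroblast-like class. By a ratio of 4 or more between classes, 3 of the 6 members that could be compared (Il4, Il13 and Tnf) were higher in mast cell-like than in fibroblast-like cells, where 6.34% of genes were. Il1b and Il10, under 5 CPM in both of these classes, were not compared there. No member was 4 times higher in mast cell-like than in macrophage-like cells, against 0.572% of genes. The 7 mast cell markers did not reach this ratio either, being in macrophage-like cells at 0.310 to 0.388 of their mast cell-like CPM. A transcript at that background could not reach it, so the absence of members says nothing about their source. Among cells with exactly 1 called tag 2 members (Il4 and Il13) reached it, against 5.04% of genes in the same cells. In those cells 5 members (Il4, Il13, Tnf, Lif and Tgfb1) were 4 times higher in mast cell-like than in fibroblast-like cells, against 7.19%. In macrophage-like cells 2 of 8 members (Il1b and Il10) were 4 times higher than in mast cell-like cells, against 11.4% of genes. Between macrophage-like and fibroblast-like cells 3 of 8 members (Tnf, Il1b and Il10) were higher in the former, against 7.85% of genes. With called doublets kept the count was 2, since the Tnf log2 ratio was 1.85 instead of 2.18. By a ratio of 2 or more, 2 of 8 members were higher in mast cell-like than in macrophage-like cells (10.8% of genes), 5 of 6 than in fibroblast-like cells (15.5%), and 7 of 8 in macrophage-like than in fibroblast-like cells (18.1%). These 7 include Il4 (2.36 times), Il13 (2.43 times) and Lif (2.04 times). The mast cell marker sum was also higher in macrophage-like (20998 CPM) than in fibroblast-like cells (8930 CPM). The part of mast cell RNA in the ratios of Il4, Il13 and Lif was not tested. In fibroblast-like cells no member reached 4 times its mast cell-like level (0 of 6, against 16.7% of genes) or its macrophage-like level (0 of 8, against 12.2%). The median log2 ratio of mast cell-like to fibroblast-like CPM was 2.28 over the 6 members compared and -0.01 over all genes compared, and that of mast cell-like to macrophage-like CPM was 0.29 over the 8 members and 0.17 over all genes compared.

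**Figure D1:**
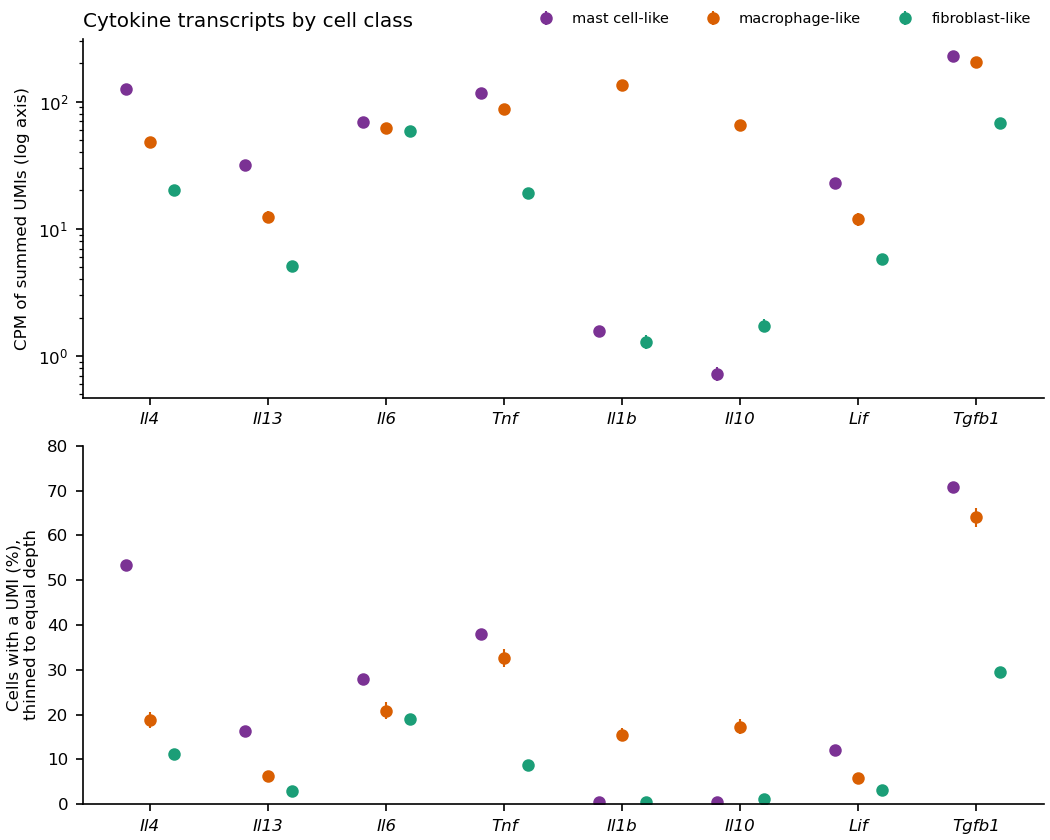
Level of the 8 cytokine genes in 3 cell classes of 1 library. The upper panel gives UMIs per 1000000 gene UMIs of the summed class (log axis), the lower panel the percent of cells with a UMI after thinning each cell to 6000 UMIs. Points are classes and bars are exact 95% intervals for counting error. Il1b (136 CPM) and Il10 (66.0 CPM) stand out in macrophage-like cells, Il4 (126 CPM) and Il13 (32.0 CPM) in mast cell-like cells, and Il6 lies between 58.3 and 69.2 CPM in all 3.

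Il4 encodes the cytokine that switches B cells to IgE and T cells to the type 2 state. Il4 was at 126 CPM in the mast cell-like class (exact Poisson 95% interval 124 to 127; 38283 UMIs, 1.72 per cell), 47.8 CPM in the macrophage-like class (45.3 to 50.4) and 20.3 CPM in the fibroblast-like class (19.6 to 20.9). The mast cell-like level of Il4 was thus 2.63 times the macrophage-like and 6.21 times the fibroblast-like one. These intervals, like all below, cover counting error only. After each cell was thinned to 6000 UMIs, so that depth was equal, 53.3% of 20340 mast cell-like cells had an Il4 UMI (Clopper-Pearson 95% interval 52.7 to 54.0), against 18.8% of 2057 macrophage-like cells and 11.3% of 5242 fibroblast-like cells. Without thinning the shares with an Il4 UMI were 74.6%, 26.5% and 33.3%. The fibroblast-like share exceeded the macrophage-like one before thinning and not after, while its CPM was lower, so no order is read from the unthinned shares.

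Il13, whose protein acts on epithelium, smooth muscle and fibroblasts, lies beside Il4. Its level was 32.0 CPM in the mast cell-like class (31.4 to 32.7; 0.438 UMIs per cell), 12.4 CPM in the macrophage-like class (11.2 to 13.8) and 5.12 CPM in the fibroblast-like class (4.79 to 5.46). Among thinned cells 16.4% of the mast cell-like class, 6.22% of the macrophage-like class and 3.03% of the fibroblast-like class held an Il13 UMI, and without thinning 27.1%, 9.76% and 11.5%. A UMI of either gene was present in 59.6% of thinned mast cell-like cells (59.0 to 60.3), 22.3% of macrophage-like cells and 13.6% of fibroblast-like cells. Both genes kept close to the same proportion between classes: the mast cell-like level was 2.57 times the macrophage-like and 6.26 times the fibroblast-like one for Il13.

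On GRCm38 (GENCODE vM21) Il4 spans chr11:53602982-53618669 and Il13 chr11:53631324-53634702, both on the minus strand with 4 exons in their principal transcripts and 12654 bases between them. Their neighbours in the type 2 cytokine locus are Kif3a and Sept8 on the Il4 side and Rad50, Il5 and Irf1 on the Il13 side. Il5, the third cytokine of this locus and a growth factor of eosinophils, had 3 UMIs in all mast cell-like cells (0.00985 CPM) and 16 in fibroblast-like cells. Rad50, a DNA repair gene that holds the locus control region in its introns, was at 95.1 CPM for the mast cell-like, 51.7 CPM for the macrophage-like and 53.6 CPM for the fibroblast-like class. Irf1, an interferon-induced factor, was highest in macrophage-like cells at 150 CPM, against 8.46 CPM in mast cell-like cells.

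Because Il4 and Il13 are neighbours and were both highest in mast cell-like cells, their promoters are printed. That of Il1b, which was highest in macrophage-like cells, is printed for contrast. Each is the 300 bases from 250 before to 50 after a RefSeq transcript start (GRCm38.p6), read 5′ to 3′ on the gene's own minus strand. The windows are chr11:53618616-53618915 for Il4, chr11:53634653-53634952 for Il13 and chr2:129371090-129371389 for Il1b. Capitals mark every match to 6 short motifs searched on both strands.
Il4: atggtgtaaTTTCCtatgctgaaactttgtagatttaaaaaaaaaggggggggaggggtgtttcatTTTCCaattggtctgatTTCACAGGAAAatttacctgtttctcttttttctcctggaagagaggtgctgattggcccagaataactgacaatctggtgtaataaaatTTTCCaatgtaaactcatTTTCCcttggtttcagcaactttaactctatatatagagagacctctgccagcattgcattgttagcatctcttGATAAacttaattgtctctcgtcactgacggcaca
Il13: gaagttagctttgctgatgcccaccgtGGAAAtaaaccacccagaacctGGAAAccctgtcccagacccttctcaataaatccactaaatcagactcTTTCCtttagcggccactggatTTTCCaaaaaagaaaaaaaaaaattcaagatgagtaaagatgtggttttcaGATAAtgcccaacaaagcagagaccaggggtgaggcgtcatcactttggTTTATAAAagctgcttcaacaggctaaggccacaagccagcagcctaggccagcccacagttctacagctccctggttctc
Il1b: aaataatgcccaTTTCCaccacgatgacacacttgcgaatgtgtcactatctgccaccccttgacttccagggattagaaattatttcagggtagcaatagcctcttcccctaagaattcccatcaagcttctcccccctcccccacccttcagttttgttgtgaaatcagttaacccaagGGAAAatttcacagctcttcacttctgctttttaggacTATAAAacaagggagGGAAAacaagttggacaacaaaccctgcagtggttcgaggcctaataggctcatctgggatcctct
The motif of GATA factors was GATAA, the core of the NFAT motif was GGAAA, and the TATA box was TATAAA, each with its reverse complement. The AP-1 motif was TGANTCA. The NF-kB motif was GGG and CC with 5 bases between, or its reverse complement, and the STAT motif was TTC and GAA with 4 bases between. The Il4 window held 5 NFAT cores, 1 GATA match (bases 16 to 20 after the start) and 1 STAT match that overlaps an NFAT core. The Il13 window held 4 NFAT cores, 1 GATA match and 2 overlapping matches of the TATA box on opposite strands. The Il1b window held 3 NFAT cores and 1 TATA box, and no GATA letters. Of the windows not printed, that of Il6 also held 1 GATA match, and those of Tnf, Lif and Tgfb1 held none. GATA letters thus did not part the members by the class in which they were highest. Of 32851 promoter windows of this length, 61.3% held the NFAT core, 25.4% GATA, 50.8% NF-kB, 7.81% AP-1, 6.95% STAT and 13.6% the TATA box. These matches are letters only, and binding was not measured. Of the factors that such motifs are named for, Gata2 was at 647 CPM in the mast cell-like class, 277 CPM in the macrophage-like class and 103 CPM in the fibroblast-like class. The mast cell marker sum was 60717, 20998 and 8930 CPM in these classes. The part of mast cell RNA in the Gata2 levels outside mast cell-like cells was not tested.

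Free RNA and doublets can put UMIs of 1 class into droplets of another, so the levels of Il4 and Il13 outside mast cell-like cells were set beside those of the mast cell markers. The 7 mast cell markers were in macrophage-like cells at 0.310 to 0.388 of their mast cell-like CPM. Il4 was at 0.380, inside this range, and Il13 at 0.388, equal to its upper edge to the digits given. In fibroblast-like cells the markers were at 0.137 to 0.157 of their mast cell-like CPM, with Il4 at 0.161, Il13 at 0.160 and Tnf at 0.165, just above. The Il4 and Il13 levels of macrophage-like cells, at or inside the range, cannot be told apart from such background. Those in fibroblast-like cells lay slightly above the highest marker, and whether this is expression was not tested. In the 679 macrophage-like cells with the lowest share of mast cell marker UMIs Il4 was at 6.63 CPM and Il13 at 1.83 CPM. In the 679 with the highest share Il4 was at 92.5 CPM and Il13 at 23.3 CPM, which is 14.0 and 12.7 times as high, while the marker sum was 23.0 times as high. The 1365 lowest and 1365 highest fibroblast-like cells gave 3.61 and 50.6 CPM for Il4 and 0.927 and 13.3 CPM for Il13.

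The remaining members did not follow that RNA equally. Tnf was at 67.3 CPM in the lowest and 105 CPM in the highest of these groups of macrophage-like cells, Il6 at 61.6 and 70.1 CPM, and Tgfb1 at 205 and 214 CPM. Il1b and Il10 ran the other way in these cells, from 208 to 64.1 CPM and from 88.7 to 33.2 CPM. Lif was at 2.40 and 20.9 CPM, a pattern close to that of Il4 and Il13. Among fibroblast-like cells Tnf was at 3.06 and 48.7 CPM (15.9 times), whereas Il6 was at 43.3 and 70.3 CPM. Cells that carry exactly 1 tag, the commonest tag of their class, were also compared. In 1941 macrophage-like cells with the Macrophages tag Il4 was at 23.3 CPM and Il13 at 6.20 CPM, or 0.189 and 0.210 of their level in 15833 Cafum-tagged mast cell-like cells, with the 7 markers at 0.152 to 0.207. Il13 lay just above that range, and Il6 (0.789), Tnf (0.666), Tgfb1 (0.852) and Lif (0.348) lay further above it. In 2630 Matrigel-tagged fibroblast-like cells the markers were at 0.0584 to 0.0772, Il4 at 0.0800, Tnf at 0.0773, Il13 at 0.108, Lif at 0.181, Tgfb1 at 0.212 and Il6 at 0.706. What the tag names stand for is not stated.

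**Figure D2:**
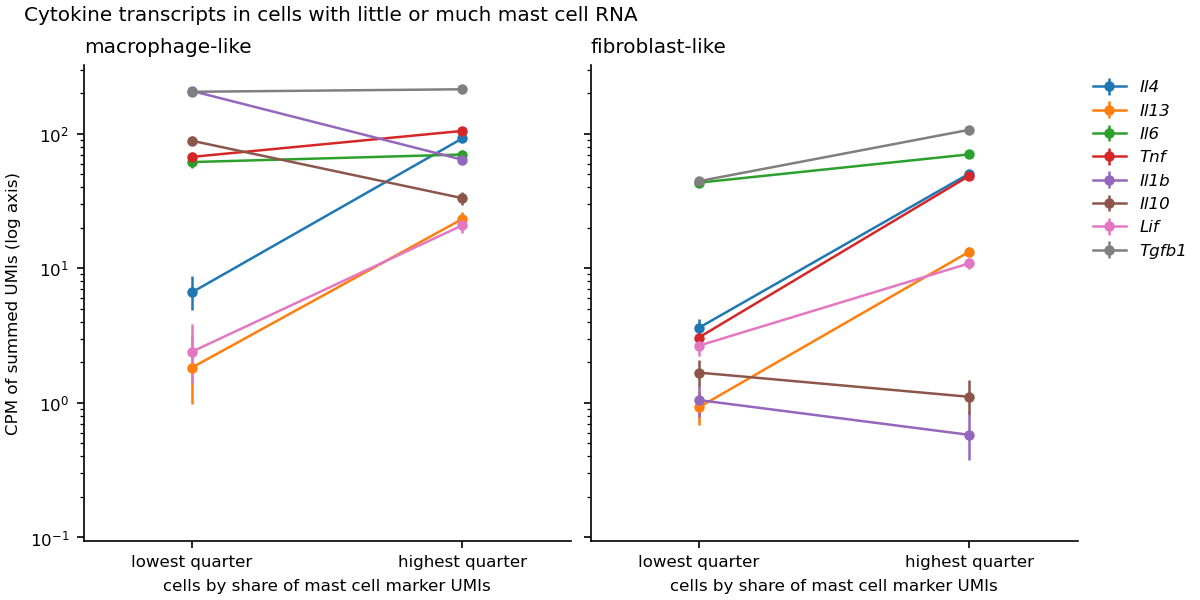
Level of the 8 cytokine genes (UMIs per 1000000 gene UMIs, log axis) in the macrophage-like (left, 679 cells a point) and fibroblast-like (right, 1365 cells a point) cells with the lowest and the highest share of UMIs from 7 mast cell markers. Points are summed cells with exact Poisson 95% intervals for counting error. Il4 goes from 6.63 to 92.5 CPM in the macrophage-like class, while Il6 goes from 61.6 to 70.1 CPM and Il1b from 208 down to 64.1 CPM.

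Tnf, the trimeric cytokine that starts much of acute inflammation and that mast cells can also hold in granules, lies at chr17:35199381-35202007. It was at 116 CPM in the mast cell-like class (115 to 118; 1.59 UMIs per cell), 87.1 CPM in the macrophage-like class (83.7 to 90.5) and 19.2 CPM in the fibroblast-like class (18.5 to 19.8). After thinning, 37.9% of the mast cell-like class, 32.7% of the macrophage-like class and 8.64% of the fibroblast-like class held a Tnf UMI, and 52.5%, 40.1% and 25.8% without thinning. The mast cell-like to macrophage-like ratio of Tnf was 1.34, and the fibroblast-like level lay near the background given by the mast cell markers. Its UMIs were spread unevenly: 2.36% of mast cell-like cells (480) held 5 or more after thinning, against 0.541% for Il4, and the top 10% of cells held 52.5% of Tnf UMIs.

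Il6, at chr5:30013114-30019981, encodes the inducer of the acute phase response. Among the members it differed least between classes, with 69.2 CPM in the mast cell-like class (68.3 to 70.2), 62.5 CPM in the macrophage-like class (59.7 to 65.5) and 58.3 CPM in the fibroblast-like class (57.1 to 59.4). The Il6 shares after thinning were 28.0%, 20.9% and 19.0%, and 43.8%, 28.4% and 43.3% without thinning. The direction of the Il6 difference between mast cell-like cells and either other class turned with the processing: the log2 ratio to macrophage-like cells was 0.15, and -0.01 with at most 5% mitochondrial UMIs and names from marker lists alone. That to fibroblast-like cells was 0.25, and -0.10 at clustering resolution 1, which left 2 fibroblast marker clusters unnamed. Lif, at chr11:4257557-4272514, which keeps stem cells undifferentiated and signals through gp130 like Il6, was lower and more graded. It was at 22.7 CPM in the mast cell-like class (22.2 to 23.2), 11.9 CPM in the macrophage-like class (10.6 to 13.2) and 5.83 CPM in the fibroblast-like class (5.47 to 6.19), and thinned shares were 12.1%, 5.79% and 3.19% (21.2%, 8.73% and 13.6% without thinning).

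Il1b, at chr2:129364570-129371139, encodes the inflammasome-processed cytokine of fever and local inflammation. It was at 136 CPM in the macrophage-like class (131 to 140), 1.57 CPM in the mast cell-like class (1.43 to 1.71) and 1.29 CPM in the fibroblast-like class (1.13 to 1.47). The macrophage-like level was 86.5 times the mast cell-like and 105 times the fibroblast-like one, and the intervals of the latter 2 classes overlapped. After thinning, 15.5% of the macrophage-like class, 0.546% of the mast cell-like class and 0.420% of the fibroblast-like class held an Il1b UMI, and 18.1%, 1.10% and 1.54% without thinning. Few cells held most of the transcript: the top 10% of thinned macrophage-like cells held 92.7% of Il1b UMIs, 54 cells (2.63%) held 10 or more and the highest held 43. The antisense gene Il1bos overlaps Il1b and was at 0.689 CPM (20 UMIs) in macrophage-like droplets and 0.154 CPM (47 UMIs) in mast cell-like ones. Whether the counting used strand is not stated, so reads of the overlap are uncertain.

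Il10, at chr1:131019845-131024974, encodes the cytokine that restrains macrophage and dendritic cell activation. It was at 66.0 CPM in the macrophage-like class (63.0 to 69.0), 0.726 CPM in the mast cell-like class (0.633 to 0.828) and 1.73 CPM in the fibroblast-like class (1.54 to 1.94). The Il10 shares after thinning were 17.3%, 0.388% and 1.07%, and 22.0%, 0.965% and 4.14% without thinning. The 7 macrophage markers were at 0.00481 to 0.00759 of their macrophage-like CPM in the mast cell-like class, with Il1b at 0.0116 and Il10 at 0.0110. In fibroblast-like cells the markers were at 0.00896 to 0.0483, with Il1b (0.00951) and Il10 (0.0263) inside that range, so the fibroblast-like values were not read as expression. Il10 UMIs in mast cell-like cells were single in every one of the 79 thinned cells that held one, and 10.1% of these cells had more than 1 tag, against 3.59% of those without.

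Within macrophage-like cells Il1b and Il10 differed in where they lay. Cells with a UMI of Lyve1, Folr2 or Timd4, genes of long-lived resident macrophages, were at 73.6 CPM of Il1b (1634 cells; 69.9 to 77.4), and the 423 cells without at 307 CPM (293 to 322). Il10 was at 67.3 CPM with and 45.1 CPM without, Tnf at 79.2 and 118 CPM, Il6 at 66.3 and 53.9 CPM, and Tgfb1 at 207 and 204 CPM. At clustering resolution 1, with members left out of the clustering, the macrophage marker cells split into a cluster of 1763 cells led by Ednrb, Lyve1 and F13a1 and another of 952 cells led by S100a9, S100a8 and Cd52. Il1b was at 27.6 CPM in the former and 312 CPM in the latter, whereas Il10 was at 65.6 and 66.7 CPM. Tnf was at 68.7 and 117 CPM, and Il6 at 72.1 and 47.0 CPM. S100a8 and S100a9 came from few macrophage-like cells. Of 319 thinned cells with Il1b, 12 held S100a8 and 13 held S100a9, with 72.7% and 70.5% of these UMIs in 1 cell. In the 1738 without Il1b they were at 0.288 and 0.575 CPM, so these leading genes describe few of the thinned cells. Of 2057 thinned macrophage-like cells, 76 had UMIs of both Il1b and Il10, against 55.2 expected from both shares (ratio 1.38, 1.08 to 1.72).

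Tgfb1, at chr7:25687002-25705077, was at 228 CPM in the mast cell-like class (226 to 230), 203 CPM in the macrophage-like class (198 to 208) and 68.0 CPM in the fibroblast-like class (66.8 to 69.3). Shares with a Tgfb1 UMI after thinning were 70.8%, 64.0% and 29.4%, and 84.8%, 71.7% and 68.6% without thinning. The fibroblast-like cells with the least mast cell RNA were at 44.4 CPM and those with the most at 107 CPM. The isoform genes differed in class: Tgfb2 was at 45.7 CPM and Tgfb3 at 11.4 CPM in the fibroblast-like class, with both under 2 CPM in the other classes.

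Mast cell-like cells were 6 clusters, and most members were unequal among them. Cluster 3 (6672 cells, led by Gm4847, Mrgprb1 and Mrgprb2, the latter 2 being Mas-related receptors for peptides) was highest in Il4 (183 CPM), Il13 (61.0 CPM), Il6 (113 CPM) and Lif (39.8 CPM). Cluster 8 (1518 cells, led by replication-dependent histone genes) was lowest in Il4 (63.1 CPM), Il13 (8.35 CPM), Il6 (41.2 CPM), Lif (9.09 CPM) and Tnf (77.4 CPM). The ratio of the highest to the lowest cluster was 7.31 for Il13, 4.38 for Lif, 2.90 for Il4 and 2.74 for Il6. Tnf had another order, with its highest level in cluster 0 (154 CPM; 5912 cells led by Ifitm1, Atp8a2 and Ctse) and 119 CPM in cluster 3. Tgfb1 varied least, from 191 to 257 CPM, and was highest in cluster 2 (led by Hells, Ctsg and Mcm4), with 255 CPM in cluster 8. At resolution 1, a cluster of 1511 cells led by Cd69, with Tnf among its 10 leading genes, reached 188 CPM of Tnf. These clusters differ in depth, from a median of 8862.5 UMIs per cell in cluster 1 to 23944 in cluster 8, and the part of depth or cell cycle in the levels was not tested.

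**Figure D3:**
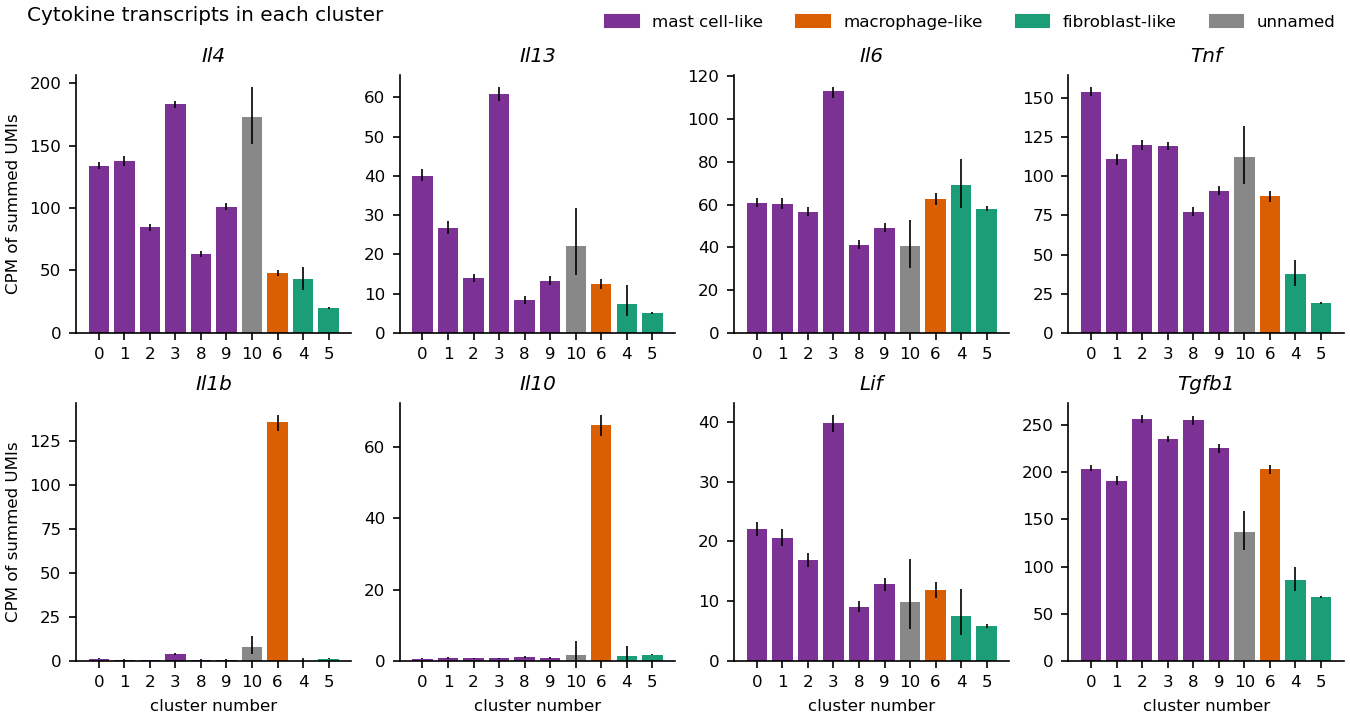
Level of each cytokine gene (UMIs per 1000000 gene UMIs, bars from 0) in the 10 clusters of at least 100 cells, coloured by class, with exact Poisson 95% intervals for counting error. Il4, Il13, Il6 and Lif are highest in mast cell-like cluster 3 (183, 61.0, 113 and 39.8 CPM), Tnf is highest in cluster 0 (154 CPM), and Il1b and Il10 are highest in macrophage-like cluster 6.

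Il6 differed more among fibroblast marker cells than between classes. At resolution 1 it was at 74.5 CPM (73.0 to 76.1) in 3711 cells led by Chl1, C7 and Cdh6, 33.9 CPM (30.1 to 38.0) in 675 cells led by Cfd, Adipoq and Hp, and 17.0 CPM (15.8 to 18.3) in 1014 cells led by Crabp1, Dlk1 and Ltbp1. Il4 was at 19.8, 44.7 and 17.8 CPM in the same clusters. The part of mast cell RNA in the Il6 levels of these cells was not tested. By tag, the 2630 Matrigel-tagged fibroblast-like cells had 48.0 CPM of Il6 (46.6 to 49.5) and 9.83 CPM of Il4, and the 358 Cafum-tagged ones 69.6 CPM of Il6 (64.9 to 74.6) and 46.4 CPM of Il4. Fibroblast-like cells with an Il6 UMI (997 thinned cells) were higher than those without in Cxcl1, a neutrophil chemokine (149 against 78.0 CPM), Pi15 (140 against 73.5 CPM), Ccl19, a chemokine of lymphoid stroma (89.3 against 47.7 CPM), Nr4a1 (88.5 against 51.9 CPM) and Malt1 (126 against 74.2 CPM). The fibroblast marker sum of these cells was 1.21 times and their mast cell marker sum 1.32 times that of cells without. This split pooled all fibroblast-like cells. At resolution 1 the cluster led by Chl1, with Ccl19 among its leading genes, held Il6 in 838 of 3693 thinned cells. The clusters led by Cfd and by Crabp1 held it in 72 of 522 and 83 of 1011. The part of cluster membership in these differences was not tested.

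Mast cell-like cells differed in how many of the 8 transcripts they held. After thinning, 5.30% of them had none of the 8, 23.2% had 1, 34.3% had 2, 24.1% had 3 and 10.3% had 4. Of fibroblast-like cells 47.0% had none, and of macrophage-like cells 11.1%. Il4 and Il13 UMIs were together in 2048 mast cell-like cells, against 1775 expected from both shares, a co-detection ratio of 1.15 (1.10 to 1.21). Larger ratios were those of Il13 with Lif (1.36, 1.25 to 1.48), Il13 with Il6 (1.26, 1.19 to 1.34) and Il6 with Lif (1.25, 1.17 to 1.34). Il4 with Tnf was at 1.03 (0.995 to 1.06) and Il4 with Tgfb1 at 0.999 (0.977 to 1.02). Within the 6 mast cell-like clusters the Il4 and Il13 ratio ran from 1.04 to 1.35 and that of Il13 and Lif from 1.01 to 1.99. The interval of the Il4 and Il13 ratio included 1 in 5 of the 6, the exception being cluster 9 (1.35, 1.10 to 1.64). The Il13 and Lif ratio of 1.99 rests on 7 cells against 3.53 expected (0.798 to 4.09). For Il13 and Lif the interval lay clearly above 1 only in cluster 3 (1.22, 1.09 to 1.36), and cluster 0 was at 1.01 (0.84 to 1.22). The ratio of Il13 and Il6 ran from 0.972 to 1.29, with intervals clearly above 1 in clusters 1 and 3. That of Il6 and Lif ran from 1.08 to 1.47, with intervals above 1 in clusters 3 and 9. In cluster 3, where Il4 and Il13 were highest, 1002 cells had both against 960 expected (1.04, 0.980 to 1.11). In macrophage-like and fibroblast-like cells Il4 and Il13 had ratios of 2.33 and 2.28, in cells whose share of mast cell RNA varied as given above.

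**Figure D4:**
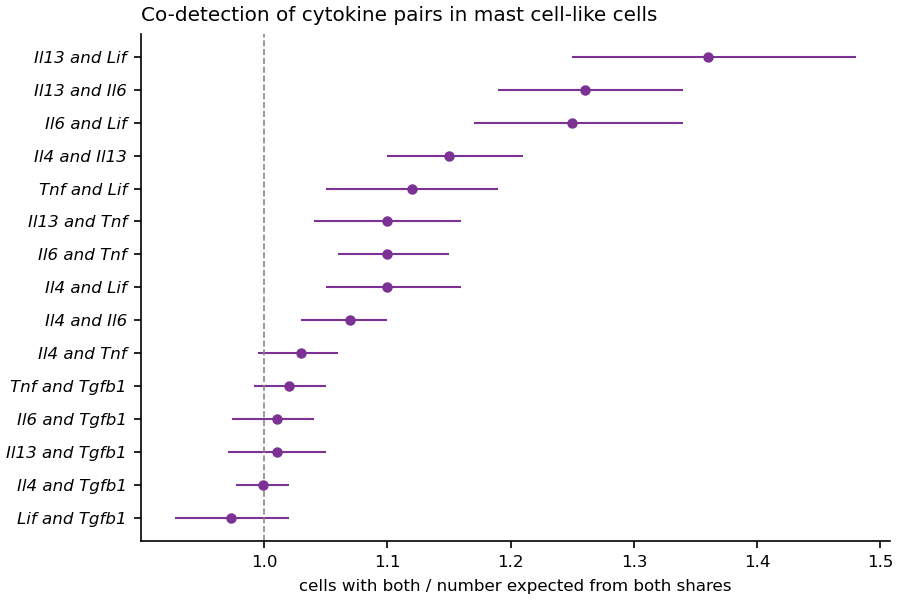
Co-detection of pairs of 6 cytokine genes in 20340 thinned mast cell-like cells. The x axis gives the number of cells with both transcripts over the number expected from both shares, with exact Poisson 95% intervals for counting error, and the dashed line marks 1. Il13 with Lif is highest at 1.36, Il4 with Il13 is at 1.15, and pairs with Tgfb1 lie between 0.973 and 1.02.

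Mast cell-like cells with an Il13 UMI (3327 thinned cells) were compared with the 17013 without. Gm4847 was at 170 against 62.1 CPM, Hdac9, a histone deacetylase, at 55.7 against 30.5 CPM, Egr3, an immediate early transcription factor, at 205 against 115 CPM, Ccl7, a monocyte chemokine, at 755 against 451 CPM, and Csf1, the macrophage growth factor, at 90.3 against 54.1 CPM. Their proliferation marker sum was 0.493 times that of cells without, and their sum of 13 immediate early genes 1.28 times. Hdac9, Egr3, Ccl7 and Gm4847 were also among the 5 leading genes of cells with Lif. Cells with Il4 were led by Gm4847 (103 against 53.1 CPM), Mrgprb1 (206 against 137 CPM) and Mrgprb2 (78.5 against 52.5 CPM). The same genes lead cluster 3, and these splits pooled all mast cell-like clusters. Cluster 3 held 3890 of 10850 thinned cells with Il4 and 1481 of 3327 with Il13, against 6003 of all 20340. The part of cluster membership in these differences, the proliferation sum included, was not tested. Cells with Tnf were led by Cd69, an early activation antigen, at 193 against 147 CPM. Their Hbb-bs difference is not read, since 34.0% of its UMIs were in 1 cell.

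After thinning, 111 mast cell-like cells had an Il1b UMI. In them Ccl1, a T cell chemokine, was at 212 CPM against 6.61 CPM in the 20229 cells without, Ccl3, an inflammatory chemokine, at 66.1 against 3.98 CPM, Nrgn at 126 against 8.84 CPM and Tnfrsf9, a costimulatory receptor, at 73.6 against 5.57 CPM. Gm4847 was at 620 against 76.7 CPM. These rest on few cells: 11 of the 111 had a Ccl1 UMI, and 1 cell held 25.5% of them. For Ccl3 these were 13 cells and 45.5%, for Tnfrsf9 15 cells and 32.7%, for Nrgn 17 cells and 20.2%, and for Gm4847 33 cells and 16.5%. Il13 was at 156 against 35.5 CPM and Il6 at 159 against 72.4 CPM in the same comparison. Of the 111, 32 held Il13, against 18.2 expected from both shares, and 51 held Il6, against 31.0. The highest thinned mast cell-like cell held 35 Il13 UMIs, and the part of single cells in these 2 differences was not tested. Their macrophage marker sum was 61.6 against 44.8 CPM, and 2.70% of them had more than 1 tag against 3.62%. Most had 1 Il1b UMI, 19 had 2 or more and 1 had 27. By cluster, Il1b was at 4.03 CPM in cluster 3 and between 0.474 and 1.16 CPM in the other mast cell-like clusters. Cluster 3, led by Gm4847, held 64 of the 111 thinned cells with Il1b, against 6003 of all 20340. The part of cluster membership in these differences was not tested.

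In macrophage-like cells, those with Il4 (387 thinned cells) were led by Tmeff2, Mrgprb1, Ptger3, Neb and Hdc, the last being the histamine-forming enzyme and a mast cell marker (655 against 214 CPM). Their mast cell marker sum was 2.40 times and their macrophage marker sum 0.614 times that of cells without, and 61.2% had more than 1 tag against 25.9%. Cells with Il10 had the reverse, with a mast cell marker sum of 0.616 times and more than 1 tag in 20.2% against 35.1%. Macrophage-like cells with Il1b (319) were higher in S100a8 and S100a9, alarmins of neutrophils and monocytes, but 1 cell held 72.7% of the S100a8 and 70.5% of the S100a9 UMIs. Il1r2, the decoy receptor of interleukin 1, was at 69.6 against 8.15 CPM in these cells, with 16.5% of its UMIs in 1 cell, and Thbs1, which can activate latent TGF-beta, was at 61.7 against 9.78 CPM.

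All 17 receptor genes listed for these cytokines were in the matrix and 16 reached 5 CPM in a class, of which 2 were highest in the mast cell-like class, 8 in the macrophage-like class and 6 in the fibroblast-like class. Of all genes that reached 5 CPM, 36.6%, 25.3% and 38.1% were highest in these classes. The shared chain of the receptors for interleukin 4 and interleukin 13, Il4ra, was at 147 CPM for the mast cell-like, 167 CPM for the macrophage-like and 65.2 CPM for the fibroblast-like class. Its partner Il13ra1, which is needed to bind interleukin 13, was at 1.60, 51.9 and 69.3 CPM, and its other partner Il2rg at 125, 65.2 and 18.9 CPM. The part of mast cell RNA in the Il2rg levels outside mast cell-like cells was not tested. The receptor for interleukin 6, Il6ra, was at 0.680, 114 and 19.3 CPM, its signalling chain Il6st (gp130) at 6.17, 52.8 and 150 CPM, and the receptor chain Lifr at 1.71, 109 and 80.9 CPM. Tnfrsf1a, the broadly expressed TNF receptor, was at 1.30, 52.9 and 54.6 CPM, and Il1r1, the signalling receptor of interleukin 1, at 4.25, 31.7 and 150 CPM. For TGF-beta, Tgfbr1 was highest in mast cell-like cells (589 CPM), Tgfbr2 in macrophage-like cells (223 CPM) and the co-receptor Tgfbr3 in fibroblast-like cells (293 CPM). Mast cell-like cells were at 6.17 CPM or less in Il13ra1, Il6ra, Il6st, Tnfrsf1a, Il1r1 and Lifr.

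**Figure D5:**
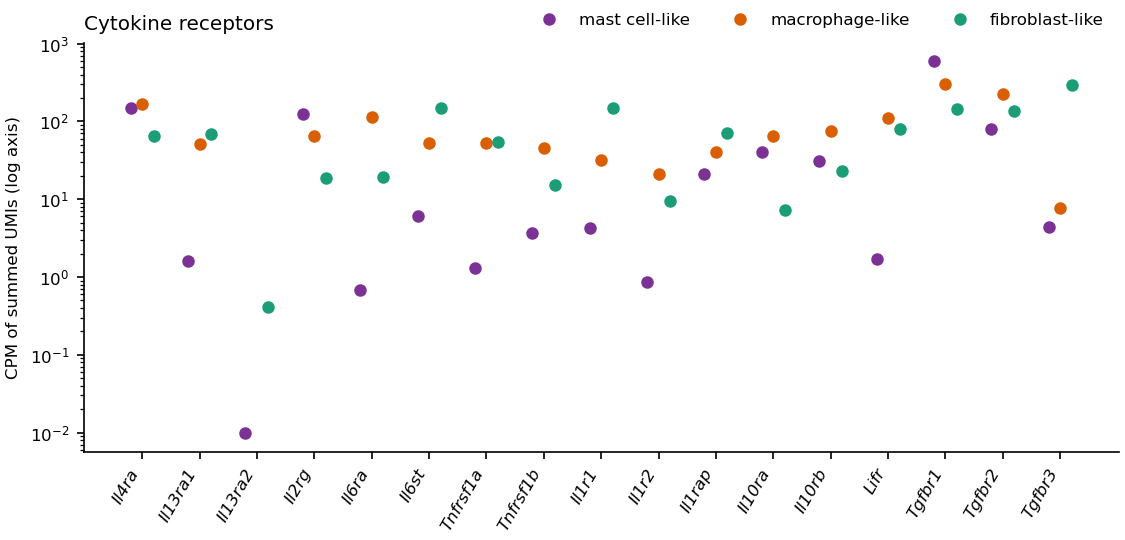
Level of 17 cytokine receptor genes (UMIs per 1000000 gene UMIs of the summed class, log axis) in the 3 classes. Each point is 1 class of 1 library, and a class with 0 UMIs has no point. Il13ra1, Il6ra, Il6st, Tnfrsf1a, Il1r1 and Lifr lie between 0.680 and 6.17 CPM in the mast cell-like class and from 19.3 to 150 CPM in the others.

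Of 33 other cytokine genes listed, 14 reached 5 CPM, and 3 of them were highest in the mast cell-like class, 7 in the macrophage-like class and 4 in the fibroblast-like class. The shares over all genes were 36.6%, 25.3% and 38.1%. The highest were Csf1 (200 CPM, fibroblast-like), Il33, the alarmin that activates mast cells (135 CPM, fibroblast-like, against 2.41 CPM in mast cell-like cells), Osm, a gp130 cytokine (92.2 CPM, mast cell-like) and Il1rn, the antagonist of interleukin 1 (53.8 CPM, macrophage-like). Il3, Il9 and Il17a had no UMI in any class. A count of 0 allows up to 3 UMIs, which is 0.00985 CPM for the mast cell-like, 0.103 CPM for the macrophage-like and 0.0170 CPM for the fibroblast-like class.

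Of 12 genes for maturation and release, all reached 5 CPM, with 2 highest in the mast cell-like class, 4 in the macrophage-like class and 6 in the fibroblast-like class. For this and the other lists of this paragraph, the shares over all genes were 36.6%, 25.3% and 38.1%. Furin, the protease that cuts the Tgfb1 precursor, was at 859 CPM for the mast cell-like, 407 CPM for the macrophage-like and 151 CPM for the fibroblast-like class. The part of mast cell RNA in the Furin levels outside mast cell-like cells was not tested. Nlrp3, the inflammasome sensor upstream of Il1b processing, was at 49.2, 152 and 8.79 CPM, and Adam17, which sheds TNF, at 27.8, 95.4 and 41.9 CPM. Thbs1 was at 1.78, 24.2 and 91.7 CPM. Of 21 regulators of cytokine transcription and mRNA decay, 7 were highest in mast cell-like and 14 in macrophage-like cells. Zfp36, which promotes the decay of AU-rich cytokine mRNAs, was at 54.4 CPM in the mast cell-like class and 822 CPM in the macrophage-like one, its relative Zfp36l1 at 168 and 652 CPM, and Nfkb1 at 67.5 and 478 CPM. Of 13 immediate early genes, 11 were highest in macrophage-like and 2 in mast cell-like cells, with Junb at 1602 against 310 CPM, Fos at 1535 against 206 CPM and Egr1 at 1162 against 618 CPM, while Ier3 was at 884 against 1397 CPM.

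Of 10 genes that interleukin 4 and interleukin 13 are known to induce in macrophages, 8 reached 5 CPM and 7 of these were at least 4 times higher in macrophage-like cells than in both other classes, against 5.11% of all genes that reached 5 CPM. They included Retnla (2977 CPM), Mrc1 (2829 CPM), Mgl2 (505 CPM) and Ccl24 (494 CPM), the last being an eosinophil chemokine. Arg1, another such gene, was at 0.517 CPM in macrophage-like cells. Several of these genes also mark resident macrophages, and no sample without these cytokines was compared, so their part in these levels was not tested.

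Cytokine transcripts are short-lived, and many carry the pentamer ATTTA in their 3′ ends, where Zfp36 and its relatives bind. The pentamer was counted in the 3′ untranslated region of the principal transcript of 7 members, the longest where there were several (GENCODE vM21, GRCm38). It occurred 8 times in Tnf, 7 times in Lif, 6 times in Il6 and in Il10, 4 times in Il1b, 3 times in Il13 and 1 time in Tgfb1. Per 1000 bases this was 14.1 in Il6, 10.5 in Tnf, 8.71 in Il1b, 8.50 in Il10, 7.41 in Tgfb1, 4.05 in Il13 and 2.20 in Lif. The median over 20850 genes was 1.16. The densest 30-base stretch is shown for Tnf, where the pentamers cluster most, and for Il1b and Tgfb1, with pentamers in capitals.
Tnf: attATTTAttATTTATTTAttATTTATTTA
Il1b: caaccacttacctATTTATTTAtgtATTTA
Tgfb1: ccccgcccgcagcgcccggggctgtATTTA
The Tnf stretch held 5 pentamers, a number that 0.230% of genes reached in any stretch of this length. That of Il1b held 3, which 2.35% of genes reached, and that of Tgfb1 held 1. Stability was not measured.

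The genes most like each member over the 10 clusters of at least 100 cells were found by Pearson's r of log2(CPM + 1), as a description. All clusters come from 1 library and share its free RNA, and the many mast cell-like clusters weigh most, other than for Il1b and Il10. For Il4 these were Cited4 (0.984), Tmem64 (0.981) and Psen2 (0.980), and for Il13 Socs2 (0.977), Prr13 (0.975) and Csrp3 (0.969). Il6 had less close partners, with Rsu1 at 0.866. For Tnf they were Mir142hg (0.985), Lilr4b (0.984) and Stap1 (0.982), for Lif Epha5 (0.965), F2r (0.952) and Anxa6 (0.951), and for Tgfb1 Tln1 (0.964), Ppp6r1 (0.956) and Sema4d (0.952). Il1b was close to Adgrg6 (0.970) and Clec4b1 (0.967), and Il10 to Stab1, Gm34084 and Tlr7 (0.997 each). The r values of Il1b and Il10, that of the pair included, rest on macrophage-like cluster 6, at 136 and 66.0 CPM. Every other cluster was at 7.63 CPM or less of Il1b and 1.74 CPM or less of Il10. Among the members, Il13 and Lif were at 0.921, Il1b and Il10 at 0.899, Il4 and Il13 at 0.882, and Il4 and Il6 at 0.112.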

How the data were processed

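The authors deposited raw UMI counts for each gene in each barcode. Per the file headers, Cell Ranger 7.0.0 wrote them. The submitters' processing notes also name STAR, R 4.1.3, Seurat 4.1.1 and the build mm10. The deposited counts were not normalized, and counting of intronic reads and use of strand are not given in the sources used here. The matrix held 34813 barcodes. Tag features (21.9% of all UMIs) were kept out of gene totals, and the library of tags alone is not analysed here. The 8 members, the gene lists and the classes were chosen with earlier results of these data known.

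Barcodes with at least 500 genes, 1000 UMIs and at most 10% mitochondrial UMIs passed (33964). Scrublet in scanpy 1.11.5 called 3242 doublets (9.31% of barcodes, expected 27.9%), so doublets remain, and 30758 cells were kept. Cells were clustered on 2000 variable genes, 30 components and 15 neighbours with leidenalg 0.10.2 at resolution 0.5, leaving out all 204 listed genes, the members and markers among them. Markers counted for a cluster from 50 CPM and 4 times their lowest cluster. A cluster was named for a list with at least 3 markers and more than 50% of it passing, unless its 10 leading genes went against the name or it had under 100 cells. No author annotation was used, so differences from the authors' cell types can stem from the naming. A tag was called at 2 times its background (1.4 times for Cafum). The rules for names and tags were set after seeing the data.

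CPM are sums per class with exact Poisson 95% intervals. For shares each cell was thinned to 6000 UMIs, which left out 2981 cells: 1943 of the mast cell-like class, 659 of the macrophage-like, 217 of the fibroblast-like and 162 of unnamed clusters. With 1 library no test was made. The functions were tested on simulated data. Genes named are all members, the up to 4 highest genes of each list, the 3 most alike over clusters and the 5 with the highest ratio among genes of 50 CPM or more in cells with a member. Receptors, Il5, Rad50, Irf1, Arg1 and other list members given beyond these were chosen after their values were seen, as were the groups of cells by mast cell RNA and the values in cells with 1 tag. A gene among the most alike and a sequence result of 1 member are not reported here.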

Additional observations from a re-analysis of the deposited data

How the results depend on the processing

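No paired analysis was possible because there is 1 library. Members at their highest in the mast cell-like, the macrophage-like and the fibroblast-like class numbered 6, 2 and 0 in all alternatives that gave 3 classes except at most 5% mitochondrial UMIs with names from marker lists alone, where they numbered 5, 3 and 0, Il6 being the one that moved. Of 24 log2 ratios between classes, 21 kept their sign in every alternative run. The exceptions were the Il6 ratios to either other class, given above, and Il1b between mast cell-like and fibroblast-like cells (0.28, and -0.72 with called doublets kept). With only cells of exactly 1 called tag, 2 members were at least 4 times higher in mast cell-like than in macrophage-like cells instead of 0, and 5 instead of 3 than in fibroblast-like cells. With a fold of 2 these counts were 2 (10.8% of genes) and 5 (15.5%), and that of macrophage-like over fibroblast-like cells was 7 (18.1%) instead of 3. These 7 include Il4, Il13 and Lif, for which the part of mast cell RNA was not tested. The share of mast cell-like cells with Il4 or Il13 (59.6%) was 61.6% with called doublets kept, 58.6% with 1 called tag, 38.8% when thinned to 3000 UMIs, 79.6% without thinning and 23.5% at 2 UMIs or more. The Il4 and Il13 co-detection ratio (1.15) was 1.09 without thinning and 1.48 at 2 UMIs or more. Clustering at resolution 1 and at most 5% mitochondrial UMIs left macrophage marker clusters unnamed, so both were also run with names from marker lists alone, an alternative added after seeing the data. Depth limits Il1b and Il10 outside macrophage-like cells, where under 2% of thinned cells held a UMI, and the cause of each change was not tested.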
